A study of Arabidopsis thaliana with 38 samples.

Results

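The genes described here are those that lost most of their signal in root ground tissue cells of the line labelled SHR, whichever of 2 labelling protocols was used. They were chosen as probe sets whose mean log2(signal + 16) was higher in WT than in SHR by at least 1.5 in the one-cycle arrays and again in the two-cycle arrays. On this scale 1 unit is 2-fold for signals far above 16, and less for low ones. Of 22746 probe sets, 419 (1.84%) passed in the one-cycle set, 951 (4.18%) in the two-cycle set and 124 (0.545%) in both. After 12 probe sets of genes set aside by name were removed, 112 members remained. The annotation gives exactly 1 gene for 58 of them, several for 4 and none for 50. Because the difference between WT and SHR chose the members, it is given as a description with no test.

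SHR (SHORT-ROOT) is a GRAS transcription factor that is made in the stele of the Arabidopsis root and moves into the surrounding cell layer. There it acts with SCR (SCARECROW), a second GRAS factor, and with zinc finger proteins of the BIRD family to drive the asymmetric division that separates endodermis from cortex, and to specify the endodermis. The endodermis is known for its Casparian strip, a ring of lignin laid into the cell wall with the help of peroxidases and dirigent proteins.

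The series holds 38 ATH1 arrays in 13 groups, all of roots of seedlings 5 days after germination on standard medium. J0571 is a marker line of the ground tissue (cortex and endodermis), and cells carrying it were sorted from C24 plants. The two-cycle set holds 3 WT and 3 SHR arrays. The one-cycle set holds 3 WT and 3 SHR arrays and 3 arrays for each of 6 lines in which a UAS construct drove BLJ, NUC, MGP, JKD, SCR or IME in the SHR background. The other arrays are from Columbia plants: 2 of dissected WT meristems, 3 of dissected meristems labelled BLJ, and 3 of sorted WT cells of the meristematic zone carrying CO2, a cortex marker. Whether SHR and BLJ are mutants is not stated in the labels, nor is how many plants or independent insertions each line represents. The arrays are called biological replicates with no mention of separate plants, and the p-values therefore cover only the spread between these samples, which may be technical.

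Apart from genes set aside, the driven gene could be checked by name for JKD alone. In the line labelled UAS-JKD the JKD signal was 102 ± 15.4 (SD, n = 3) against 215 ± 41.2 (n = 3) in SHR, a log2 difference of -0.96 ± 0.22 (SE, limma, adjusted p = 0.00169). Against the mean of the other 5 lines it was higher, by 0.51 ± 0.17 (adjusted p = 0.0334): the line means were 23.2 in UAS-IME, 30.2 in UAS-BLJ, 64.8 in UAS-NUC, 120.3 in UAS-MGP and 190 in UAS-SCR. Since it was lower than in SHR, this group is called the JKD-labelled line below. Single arrays stood apart in some groups. In two-cycle WT, array 2 was far above the other 2 arrays for many members (228, 4749 and 104 for AT5G04120), and without it 91 members met the rule. In UAS-NUC, array 2 was low for many members.

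The log2 ratio of the 3′ to the 5′ GAPDH control probe sets, a measure of RNA length, was 2.50 ± 0.58 (SD, n = 3) in two-cycle SHR and -0.02 ± 0.11 in two-cycle WT. It was -0.05 ± 0.17 in one-cycle SHR, 0.27 ± 0.20 in one-cycle WT and 0.02 ± 0.12 in UAS-BLJ. The means of the other 5 lines ranged from 0.51 to 1.40. The low end of the signals moved with the same split: the 10th percentile was 3.22 to 3.41 in one-cycle SHR and 3.58 to 3.96 in UAS-BLJ, and 8.06 to 10.2 in the other 5 lines. The part of these values in the results was not tested.

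Of 12 genes listed for endodermis and Casparian strip, 4 had a named probe set, and 3 of these met both thresholds but were among those set aside. The summed signal of these 3 was 4131 to 6227 in one-cycle WT and 592 to 904 in SHR. The fourth, EN7, did not follow the members: it was 387 ± 73.2 (SD, n = 3) in one-cycle WT and 735 ± 123 in SHR, and 407 ± 44.9 against 167 ± 75.8 in the two-cycle set. Of 5 cortex markers, all 5 measured, the sum was 1195 to 1690 in WT and 3520 to 4052 in SHR in the one-cycle set, and 1268 to 2375 and 500.1 to 1707 in the two-cycle set. Their part in the results was not tested. None of the 9 named probe sets of these 2 lists was a member. In sorted cells, fewer cells of a type and less RNA per cell cannot be told apart.

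Across the 112 members, the median difference between WT and SHR was 2.45 in the one-cycle set and 2.40 in the two-cycle set, with maxima of 6.03 and 7.14. All 3 WT arrays lay above all 3 SHR arrays for 111 members in the one-cycle set (18.9% of all probe sets did so) and for 110 in the two-cycle set (26.5%). The members' median signal fell from 384 in WT to 65.3 in SHR (one-cycle), where the median of all probe sets was 73.0 and 79.0. Just inside the thresholds were AT1G20380 (2.19 one-cycle, 1.501 two-cycle), AT1G80640 (1.505 and 1.78) and AT2G45040 (1.52 and 1.57). Just outside were AT1G49740, AT2G37470 and AT1G33750, each at 1.49 in the one-cycle set. The largest difference belonged to a probe set without a named gene, 264577_at. It gave 8984, 7413 and 9181 in one-cycle WT and 122, 114 and 108 in SHR. The 58 named members sit on all 5 chromosomes, 15 each on chromosomes 1 and 5 and 3 on chromosome 3. Among all named probe sets that is 0.435%, 0.499% and 0.109% of those of the chromosome.

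The first question was how far each driven factor brought the members back. Recovery was taken as the line's difference from SHR as a percentage of the difference between WT and SHR, in one-cycle arrays, so that SHR is 0% and WT 100%. The median over members was highest in UAS-SCR at 33.0%, followed by UAS-IME at 23.5% and UAS-NUC at 19.25%. It was 7.71% in the JKD-labelled line, -3.13% in UAS-BLJ and -5.15% in UAS-MGP. The medians of single arrays were 38.9%, 21.6% and 39.2% in UAS-SCR, and 25.03%, 14.45% and 23.7% in UAS-IME. In UAS-NUC they were 34.3%, 7.73% and 26.3%. The members were chosen for low values on these SHR arrays, which by itself favours a line coming out above SHR, so recovery is a description. The 3 UAS-SCR arrays overlapped with those of UAS-IME and UAS-NUC, and all 9 of these arrays lay above all SHR arrays (-7.50% to 6.99%). Those of UAS-BLJ (-7.94% to 0.10%) and UAS-MGP (-13.6% to 0.36%) overlapped with SHR.

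**Figure D1:**
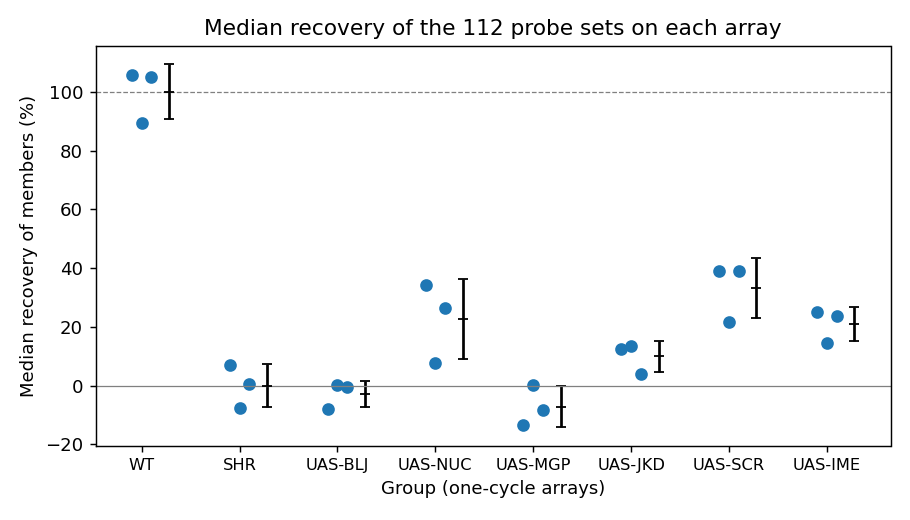
Median recovery (%) of the 112 members on each one-cycle array, with SHR at 0% and WT at 100% by construction. Points are arrays, and the bar beside them is the mean ± SD (n = 3). The medians over members of the line means were 33.0% in UAS-SCR and -5.15% in UAS-MGP.

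Recovery was partial for most members. The best line reached a median of 46.4% of the difference, and for 60 members no line mean came to 50%. Line means over 100% were seen for 10 members, and 2 members, AT4G16447 and AT5G58300, stayed below 0% in every line. The number of members past 50% was 30 in UAS-SCR, 21 in UAS-NUC, 21 in the JKD-labelled line, 18 in UAS-IME, 7 in UAS-BLJ and 4 in UAS-MGP. UAS-SCR had the highest mean of the 6 lines for 42 members (37.5%, against 17.5% of all 15777 probe sets tested). UAS-IME had it for 24 (21.4%, against 8.6%), the JKD-labelled line for 24 (21.4%, against 15.3%) and UAS-NUC for 15 (13.4%, against 10.6%). UAS-MGP had the lowest for 49 (43.8%, against 17.3%) and UAS-BLJ for 35 (31.2%, against 22.8%).

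All 112 members passed the filter in 1 limma fit of the 24 one-cycle arrays, as they could through the WT arrays alone. The rule used the SHR arrays, so the counts against SHR in this paragraph describe the members and support nothing, and no adjusted p against SHR is given for a member. Against SHR, 63 members were higher in UAS-SCR (56.2%), where 25.1% of all probe sets tested were called higher, and 1 was lower (22.6% of all). In UAS-IME 40 were higher (13.2% of all) and 4 lower (7.94%). In UAS-NUC 36 were higher (20.1%) and 2 lower (20.6%). In the JKD-labelled line 34 were higher (23.4%) and 9 lower (22.8%). In UAS-BLJ 8 were higher (6.47%) and 14 lower (4.67%), and in UAS-MGP 1 was higher (5.31%) and 20 lower (3.76%). The median log2 difference of the members was 0.78 in UAS-SCR, 0.57 in UAS-IME, 0.48 in UAS-NUC, 0.19 in the JKD-labelled line, -0.07 in UAS-BLJ and -0.10 in UAS-MGP, while that of all probe sets lay between -0.02 and 0.05. These 6 comparisons share the SHR arrays with each other and with the rule. Without array 2 of UAS-NUC, 56 members were higher there. Without SHR array 2_2, 20 were higher in UAS-IME, and without UAS-IME array 1 or 3, 24 or 26. The count of lower members in UAS-MGP was 9 without SHR array 2_1, 13 without SHR array 2_3 and 9 without UAS-MGP array 1. In UAS-BLJ the count of lower members was 8 or 9 without SHR array 2_1, SHR array 2_3, UAS-BLJ array 1 or UAS-BLJ array 3, and that of higher members was 5 without UAS-BLJ array 1. The count of lower members was 2 in UAS-IME without SHR array 2_1, 2 in UAS-SCR without its array 2, and 1 in UAS-NUC without SHR array 2_1 or 2_2 or its own array 1 or 3.

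**Figure D2:**
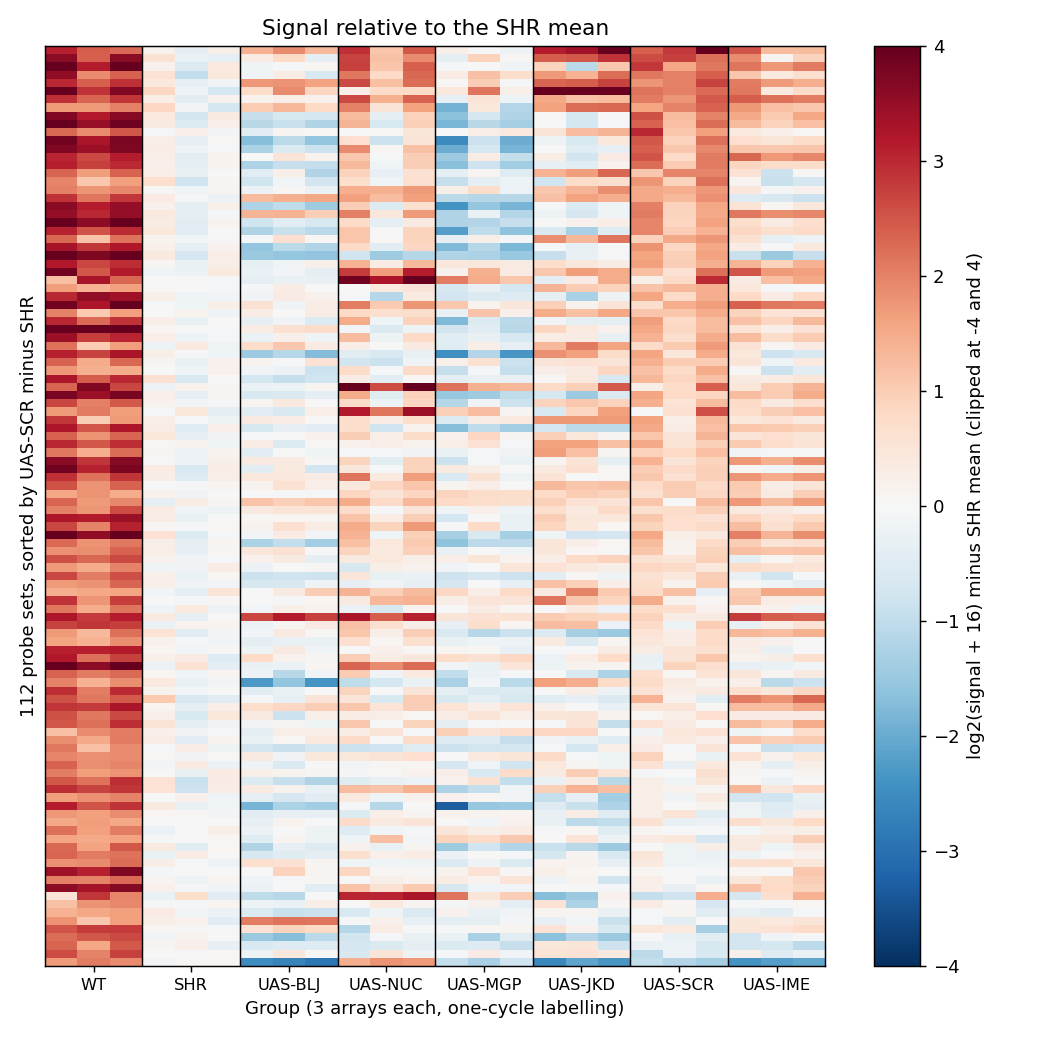
Each line of the map is 1 of the 112 members and each column 1 one-cycle array. Colour is log2(signal + 16) minus the SHR mean, clipped at -4 and 4, and members are sorted by UAS-SCR minus SHR. The red block in WT is what the rule selected, and UAS-SCR, UAS-NUC and UAS-IME show partial red where UAS-BLJ and UAS-MGP are pale or blue.

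A comparison of each line with the mean of the other 5 lines uses neither WT nor SHR means, though in this fit the WT and SHR arrays still enter the filter and the estimate of the spread. By an F test over the lines, 92 of 112 members differed (82.1%), as did 66.3% of all probe sets. UAS-SCR was above the other lines for 55 members (15.6% of all probe sets were higher) and below for 3 (12.8% lower). UAS-IME was above for 31 (5.17%) and below for 3 (4.24%). UAS-NUC was above for 21 (7.13%) and below for 3 (6.75%). UAS-MGP was above for 3 (18.8%) and below for 56 (16.1%), and UAS-BLJ was above for 4 (17%) and below for 48 (19%). The JKD-labelled line was split, with 24 members above (13.1%) and 18 below (11%). With the 18 arrays of the lines alone, which leaves WT and SHR out of filter and spread, 91 members passed the filter, and 83 of them (91.2%) differed between lines, as did 60% of all probe sets. In that fit UAS-SCR was above the other lines for 46 (50.5% of those 91, 14.3% of all probe sets), UAS-IME for 28 (30.8%, 4.45% of all) and UAS-NUC for 20 (22%, 5.96% of all). UAS-MGP was below them for 55 (60.4%, 15.2% of all) and UAS-BLJ for 39 (42.9%, 17.8% of all). The JKD-labelled line was above for 20 (22%, 12% of all) and below for 16 (17.6%, 9.23% of all). In the fit of 24 arrays, the count for UAS-SCR was 34 without its array 3, that for UAS-IME 18 or 17 without its array 1 or 3, and that of lower members in UAS-MGP 37 without its array 1. For UAS-NUC it was 12 without its array 1 or 3 and 47 without its array 2. Without that array, 29 members were below the other lines in the JKD-labelled line. The small counts moved as well: no member was above the others in UAS-MGP without its array 1 or 3, lower members were 1 in UAS-SCR without its array 3 and 1 or 5 in UAS-NUC without its array 1 or 2, and those in UAS-IME were 6 without UAS-NUC array 2 and 5 without UAS-SCR array 1 or UAS-IME array 1.

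**Figure D3:**
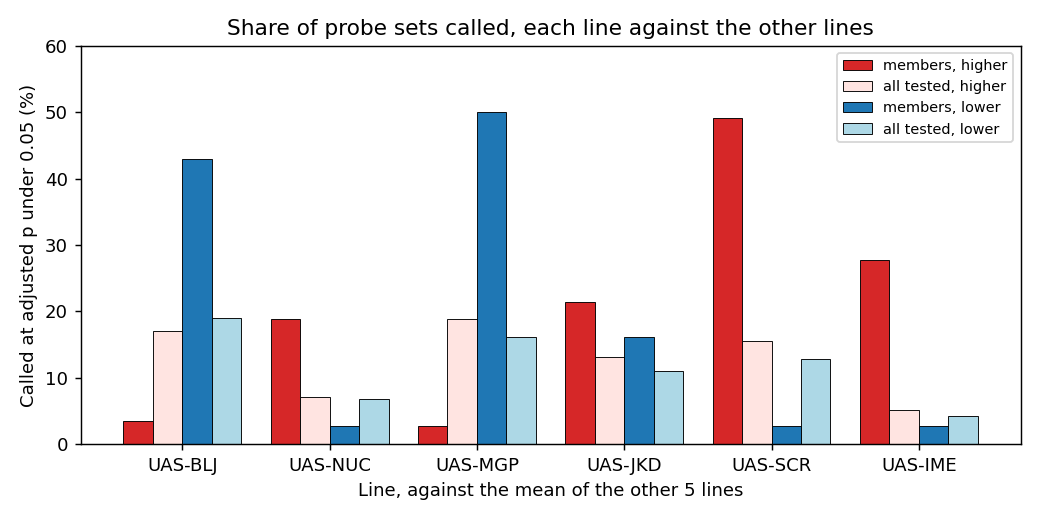
Share of probe sets called at an adjusted p under 0.05 when each line was set against the mean of the other 5 lines. Dark bars are the 112 members and pale bars all 15777 probe sets tested. In UAS-SCR 49.1% of members were higher against 15.6% of all, and in UAS-MGP 50% were lower against 16.1%.

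The members with a known role were grouped by gene family. This grouping was made after their values had been seen and from general knowledge of the families, so it is a description and is given no test of its own. Calls in the next paragraphs are those of a line against the mean of the other 5 lines in the fit of 24 arrays. In this comparison 5.17% to 18.8% of all probe sets were called higher, depending on the line, and 4.24% to 19% lower. Counts in groups this small can lie near these shares. The rule chose members for low values on the SHR arrays, which favours a line lying above SHR without overlap. Such statements below describe the arrays and support nothing.

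The peroxidase and dirigent group holds 4 members: AT5G66390 and Prx37, class III peroxidases, which oxidise wall phenolics, and AT4G13580 and AT2G21100, of the dirigent family, whose proteins guide the coupling of phenolic radicals. All 4 were above the other lines in UAS-SCR. AT5G66390 gave 5236, 3516 and 4921 in one-cycle WT and 425, 275 and 363 in SHR. In UAS-SCR it gave 2025, 678 and 1648. In UAS-BLJ it was 97.2, 157 and 106, and in UAS-MGP 46.9, 186 and 76.9. All UAS-SCR arrays lay above all SHR arrays and below all WT arrays, while those of UAS-BLJ and UAS-MGP lay below SHR. The log2 difference from the other lines was 2.39 ± 0.33 (SE) in UAS-SCR (adjusted p = 2.24e-05), -1.59 ± 0.33 in UAS-BLJ (adjusted p = 0.000927) and -1.998 ± 0.33 in UAS-MGP (adjusted p = 0.000239).

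AT4G13580 gave 455, 201 and 452 in SHR, 2121, 851 and 1430.0 in UAS-SCR, and 1031, 740.0 and 1056 in UAS-IME, so that both lines lay above SHR without overlap. Against the other lines it was higher in UAS-SCR by 1.96 ± 0.30 (adjusted p = 6.27e-05) and in UAS-IME by 1.30 ± 0.30 (adjusted p = 0.00651, 0.0603 without UAS-IME array 3). Prx37 gave 81.0, 58.7 and 59.0 in SHR and 228, 124 and 208 in UAS-SCR. Prx37 was above the other lines in UAS-SCR by 1.42 ± 0.24 (adjusted p = 0.000242). AT2G21100, with 66.7, 20.1 and 38.4 in SHR and 121, 83.9 and 107 in UAS-SCR, differed from the other lines in UAS-BLJ by -1.04 ± 0.22 (adjusted p = 0.000981).

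AT1G30750, to which no role is given here, was likewise highest in UAS-SCR and lowest in UAS-MGP. It gave 424, 280.1 and 432 in SHR, 1562, 713 and 1124 in UAS-SCR and 57.3, 118 and 90.4 in UAS-MGP. The 3 groups did not overlap, and the differences from the other lines were 2.04 ± 0.25 (adjusted p = 6.71e-06) and -2.08 ± 0.25 (adjusted p = 1.12e-05).

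The wall polysaccharide group holds 6 members. In it are AT2G22620, of the rhamnogalacturonate lyase family, which cleaves pectin, XTH16 and XTH21, xyloglucan endotransglucosylases that remodel hemicellulose, and TBL19 and TBL30, of the TRICHOME BIREFRINGENCE-LIKE family of polysaccharide O-acetylation. Against the other lines, 2 were higher in UAS-NUC, 2 in UAS-SCR and 1 each in UAS-IME and the JKD-labelled line, while 2 were lower in UAS-BLJ, 2 in UAS-MGP and 1 in the JKD-labelled line. AT2G22620 gave 930.3, 427 and 782 in WT and 40.3, 18.7 and 49.9 in SHR. It gave 318, 92.2 and 248 in UAS-NUC, 345, 133 and 202 in UAS-SCR, and 208, 151 and 197 in UAS-IME. These 3 lines lay between SHR and WT without overlap. UAS-BLJ, at 28.7, 32.8 and 37.4, overlapped with SHR. It was above the other lines in UAS-SCR by 1.32 ± 0.36 (adjusted p = 0.0093, 0.0824 without UAS-SCR array 1) and in UAS-NUC by 1.21 ± 0.36 (adjusted p = 0.0279, 0.281 and 0.184 without UAS-NUC array 1 or 3). Its difference was 1.10 ± 0.36 in UAS-IME, which was not called (adjusted p = 0.0567), and it was lower in UAS-BLJ (-1.34, adjusted p = 0.00658) and UAS-MGP (-1.37, adjusted p = 0.00785).

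TBL30 gave 109, 70.6 and 99.5 in UAS-NUC and 111, 81.6 and 87.9 in UAS-IME, against 48.7, 37.6 and 35.3 in SHR. In UAS-SCR it gave 48.3, 28.6 and 43.5, which overlapped with SHR. TBL30 was above the other lines in UAS-NUC by 0.86 ± 0.15 (adjusted p = 0.000368) and in UAS-IME by 0.88 ± 0.15 (adjusted p = 0.000498). It was lower in UAS-BLJ (adjusted p = 0.00927, 0.0967 without UAS-BLJ array 3) and in UAS-MGP (adjusted p = 0.00372, 0.0677 without UAS-MGP array 1). XTH21 was near the floor in SHR at 0.95, 0.59 and 1.47 and gave 110.2, 42.3 and 99.1 in WT. In the JKD-labelled line it gave 58.8, 19.5 and 15.1, higher than in the other lines with an adjusted p of 0.0467. That call was lost when any 1 of 10 of the 18 line arrays was left out (adjusted p up to 0.0693), and XTH21 did not pass the filter of the 18-array fit. XTH16 (recoveries of -11.0% to 27.8%) and TBL19 (-35.1% to 7.19%) had no called difference from the other lines in any line.

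Kinases made up 8 members, most of them receptor-like kinases, membrane proteins that pass on outside signals. Against the other lines, 4 were higher in UAS-IME, 3 in UAS-SCR and 1 in UAS-BLJ, while 3 were lower in UAS-BLJ, 3 in UAS-MGP, 2 in the JKD-labelled line and 1 in UAS-SCR. Of the 4 in UAS-IME, AT1G03920 (adjusted p = 0.0457) and AT5G58150 (adjusted p = 0.0444) were not called in the fit of 18 arrays (0.0731 and 0.0574) and were lost without any 1 of the 3 UAS-IME arrays, with adjusted p up to 0.207 and 0.211. In UAS-SCR the higher call of AT2G15300 was lost without its array 1 (0.065) or 3 (0.0588), and the lower call of AT1G80640 without array 2 (0.132) or 3 (0.0592). Also lost were the lower calls of AT5G53320 in UAS-BLJ without its array 2 (0.051) and of AT1G80640 in UAS-MGP without its array 1 (0.0566). AT5G65530, a receptor-like cytoplasmic kinase, gave 254, 146 and 184 in SHR. It gave 515, 520.0 and 392 in UAS-BLJ, 850.3, 370.1 and 573 in UAS-SCR and 875, 728 and 771 in UAS-IME. Each of these lines lay above SHR without overlap, and its WT arrays (2357, 1655 and 2363) lay above all of them. Its difference from the other lines was 1.38 ± 0.26 in UAS-IME (adjusted p = 0.00144) and 0.82 ± 0.26 in UAS-SCR (adjusted p = 0.0241, lost without UAS-SCR array 1 at 0.186 or 3 at 0.0998). In UAS-BLJ it was not called (adjusted p = 0.128).

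AT1G80640, another kinase, was the named member with the largest difference from SHR in UAS-BLJ. It gave 358, 209.9 and 318 in one-cycle WT, 113, 104 and 63.8 in SHR and 432, 463 and 454 in UAS-BLJ. The UAS-BLJ arrays lay above all WT arrays of this set, a recovery of 141%, while the line means of the other 5 lines recovered between -29.5% and 29.8%. Against the other lines the difference was 2.22 ± 0.17 (adjusted p = 1.34e-08). AT5G53320, a leucine-rich repeat receptor-like kinase, was highest in UAS-IME at 85.6, 69.7 and 66.9, against 3.10, 1.52 and 7.41 in SHR. Its difference from the other lines was 1.33 ± 0.24 (adjusted p = 0.0011). AT5G58300, also of this family, was among the least recovered members: line recoveries ran from -50.9% to -1.20%.

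The 2 members known as transcription factors are both of the basic helix-loop-helix class. B70 gave 168, 156 and 181 in UAS-IME and 34.3, 13.6 and 10.6 in the JKD-labelled line, against 92.2, 39.0 and 51.9 in SHR. Neither line overlapped with SHR, and the differences from the other lines were 1.43 ± 0.22 (adjusted p = 0.000203) and -1.49 ± 0.22 (adjusted p = 9.02e-05). AT4G37850 behaved otherwise, with 11.5, 9.99 and 13.8 in SHR and 52.1, 43.1 and 46.7 in the JKD-labelled line, higher than in the other lines by 0.64 ± 0.17 (adjusted p = 0.0115, 0.0591 without array 1 of that line). It did not pass the filter of the 18-array fit.

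Of 4 members of metal, calcium or redox binding families, 4 were below the other lines in UAS-MGP and 3 above them in the JKD-labelled line. Of these calls, AT1G76640 in UAS-MGP was lost without UAS-MGP array 3 (0.0883) and AT3G05920 in the JKD-labelled line without its array 3 (0.0836). AT3G05920, with a heavy metal-associated domain, was recovered most among the named members, by 62.8% on average over the lines. It gave 1611, 1050.0 and 1506 in WT and 257, 147 and 171 in SHR. In the JKD-labelled line it gave 999, 1074 and 1294, in UAS-BLJ 656, 692 and 604 and in UAS-MGP 193, 386 and 175. The UAS-MGP arrays overlapped with SHR. Its difference from the other lines was -1.71 ± 0.25 in UAS-MGP (adjusted p = 8.05e-05) and 0.89 ± 0.25 in the JKD-labelled line (adjusted p = 0.0136). AT1G72230, of the cupredoxin family of copper proteins, split the lines. It gave 136, 107 and 98.5 in SHR and 443, 386 and 199 in the JKD-labelled line. In UAS-BLJ it gave 31.1, 41.9 and 22.6 and in UAS-MGP 7.73, 41.4 and 9.88. Its differences from the other lines were 2.02 ± 0.28 in the JKD-labelled line (adjusted p = 5.09e-05) and -2.04 ± 0.28 in UAS-MGP (adjusted p = 4.24e-05).

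AT1G76640, a calmodulin-like protein, stood well above SHR in 3 lines. It gave 3530.5, 2964 and 3311 in WT and 874, 765 and 932 in SHR. In UAS-NUC it gave 2367, 2317 and 2819, in the JKD-labelled line 1814, 2236 and 3122, and in UAS-SCR 2466, 2364 and 2902. These are recoveries of 79.8%, 74.8% and 82.1%, against -7.99% in UAS-BLJ, 12.5% in UAS-MGP and 10.04% in UAS-IME. The 3 lines lay above SHR without overlap and were each above the other lines (0.87, 0.76 and 0.92 log2, SE 0.16, adjusted p = 0.000879, 0.00239 and 0.000299).

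Enzymes of metabolism and signalling were 8 members. AT5G04120, of the phosphoglycerate mutase family, formed 2 levels. It gave 658, 486 and 433 in SHR. It gave 1278, 1407 and 1527 in UAS-BLJ, 1653, 1238 and 1634 in UAS-NUC, 1180.4, 1621 and 1455 in the JKD-labelled line and 1504, 1309 and 1887 in UAS-SCR. In UAS-MGP it was 239, 227 and 225 and in UAS-IME 354, 329 and 279. The first 4 lines lay above SHR and the other 2 below it, with no overlap on either side. Differences from the other lines were 0.87 to 1.04 in the first 4 (adjusted p = 5.05e-05 to 0.000451), -2.16 ± 0.15 in UAS-MGP (adjusted p = 1.15e-08) and -1.62 ± 0.15 in UAS-IME (adjusted p = 4.03e-07).

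AT2G37440, of the inositol polyphosphate phosphatase family, gave 21.0, 3.90 and 2.82 in SHR, 113, 119 and 161 in the JKD-labelled line and 129, 144 and 95.6 in UAS-SCR. Neither line overlapped with SHR, and both were above the other lines (1.43 and 1.33 log2, SE 0.36, adjusted p = 0.00642 and 0.00862). BGLU28, a beta-glucosidase, gave 326, 75.9 and 115 in UAS-SCR against 23.7, 32.4 and 23.1 in SHR, and was above the other lines there by 1.61 ± 0.26 (adjusted p = 0.000107). UGT71C3, a glycosyltransferase, had recoveries between -12.8% and 9.71% and no called difference in any line.

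Other members were high in several lines or in 1. TRM21, of a family of microtubule-associated proteins, gave 141, 81.6 and 127 in SHR, 793, 333 and 654 in UAS-NUC, 531, 424 and 688 in UAS-SCR and 677, 584 and 520.3 in UAS-IME. All 3 lines lay above SHR without overlap, and recoveries were 79.3%, 77.4% and 82.3%, against 7.28% in UAS-BLJ and -0.06% in UAS-MGP. Each was above the other lines (0.98, 0.91 and 1.07 log2, SE 0.21, adjusted p = 0.00341, 0.00336 and 0.00209), but UAS-NUC not without its array 1 (0.0786) and UAS-SCR not without its array 3 (0.054). The neighbouring genes AT2G17070 and AT2G17080 were highest in the same line. AT2G17080 gave 158, 101 and 128 in SHR and 360.0, 439.8 and 692 in the JKD-labelled line, and AT2G17070 gave 62.4, 49.8 and 52.7 against 240.2, 160.0 and 296. Their differences from the other lines in it were 1.54 ± 0.30 (adjusted p = 0.0012) and 1.32 ± 0.26 (adjusted p = 0.00121). Probes of such neighbouring, related genes may share signal.

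AT1G54540 gave 95.01, 77.6 and 116 in UAS-IME and 39.3, 1.34 and 4.27 in SHR, a recovery of 86.3%. It was above the other lines there by 2.11 ± 0.34 (adjusted p = 0.000346). AT5G06190 was the 1 member counted as higher than SHR in UAS-MGP, with 158, 141 and 138 against 89.8, 68.5 and 76.3, but there it did not differ from the other lines by the test (adjusted p = 0.361). At the other end, AT4G16447 gave 6.84, 3.31 and 14.3 in UAS-BLJ and 4.46, 11.96 and 6.94 in the JKD-labelled line, all below its SHR arrays (41.5, 53.9 and 47.7). Its mean recovery over the lines was -30.1%, the lowest of the named members, followed by AT1G76250 at -26.3%. Among unnamed members, 267457_at gave 3985, 4716 and 3572 in the JKD-labelled line and 399, 198 and 129 in SHR, a recovery of 115%.

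**Figure D4:**
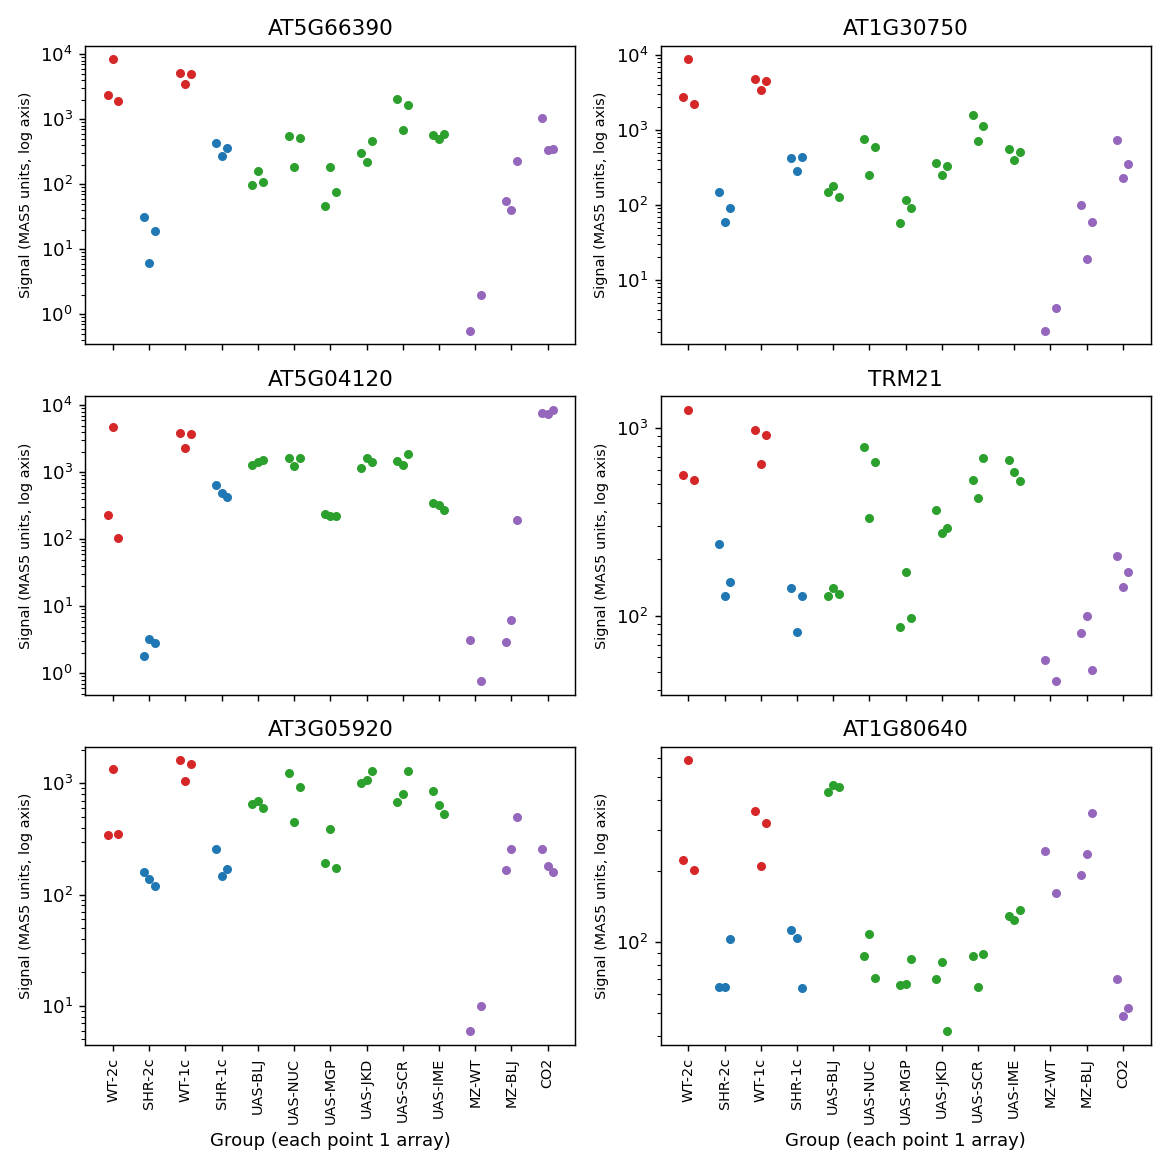
Signal of 6 members on every array, on a log axis. WT is red, SHR blue, the UAS lines green, and meristems (MZ) and CO2 cells purple; 1c and 2c are the one-cycle and two-cycle sets. AT5G66390 and AT1G30750 were highest among the lines in UAS-SCR, AT1G80640 in UAS-BLJ, and AT5G04120 in CO2 cells at 7374 to 8566.

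Markers of other cells moved with some lines. Of 7 root hair and epidermis genes, 2 were measured under a gene name, EXPA7 and EXPA18, expansins of root hairs. Their sum was 92.0 to 140.2 in SHR and 37.9 to 104 in WT, but 604 to 962 in the JKD-labelled line and 339 to 804 in UAS-SCR, where both rose. It was 39.2 to 239 in the other 4 lines. The cortex sum was 5759 to 6594 in UAS-BLJ, 3216 to 3805 in UAS-MGP, 1534 to 1994 in UAS-NUC, 2375 to 3611 in the JKD-labelled line, 3447 to 4458 in UAS-SCR and 2263 to 3080 in UAS-IME. The 5 cortex genes did not move together. Against the other lines, 1 was higher and 1 lower in UAS-BLJ and likewise in UAS-SCR. In UAS-NUC 1 was higher and 2 lower, and in the JKD-labelled line 2 and 1. In UAS-MGP 1 was higher and 0 lower, and in UAS-IME 0 and 4. No member belongs to these lists, and their part in the members' values was not tested. Of 4 wound and stress genes, 3 were measured, with a sum of 1880 to 3130 in SHR, 1874 to 3048 in UAS-MGP, 2512 to 3591 in the JKD-labelled line, 2972 to 4132 in UAS-BLJ, 3139 to 3918 in UAS-SCR, 3433 to 4817 in UAS-IME and 2834 to 6469 in UAS-NUC. All 3 were below the other lines in UAS-MGP and 1 in UAS-BLJ, while 1 each was above them in UAS-NUC and UAS-IME. Their part was not tested either. Of 12 genes of the SHR pathway, 4 (JKD, BIB, SCL23 and SLY2) were measured under a gene name, and none was a member. Of the 3 tested, 1 was lower than SHR in UAS-BLJ, 2 in UAS-NUC and 1 each in UAS-MGP, UAS-IME and the JKD-labelled line. Genes listed for suberin, stele and root cap had no probe set with a gene name.

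The next question was where the members stand in other root samples. In CO2 cells the members' median signal was 111, above that of all probe sets (58.3), and in WT meristems it was 23.3, below that of all probe sets (65.0). In meristems labelled BLJ it was 69.9, with 112 for all probe sets. CO2 cells had a higher mean than WT meristems for 85 of 112 members, a higher mean than J0571 SHR (one-cycle) for 81, and a higher mean than J0571 WT for 13. WT meristems exceeded J0571 SHR for 38 and J0571 WT for 5. The J0571 arrays are of another ecotype and were used by the rule, so these counts carry no test.

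**Figure D5:**
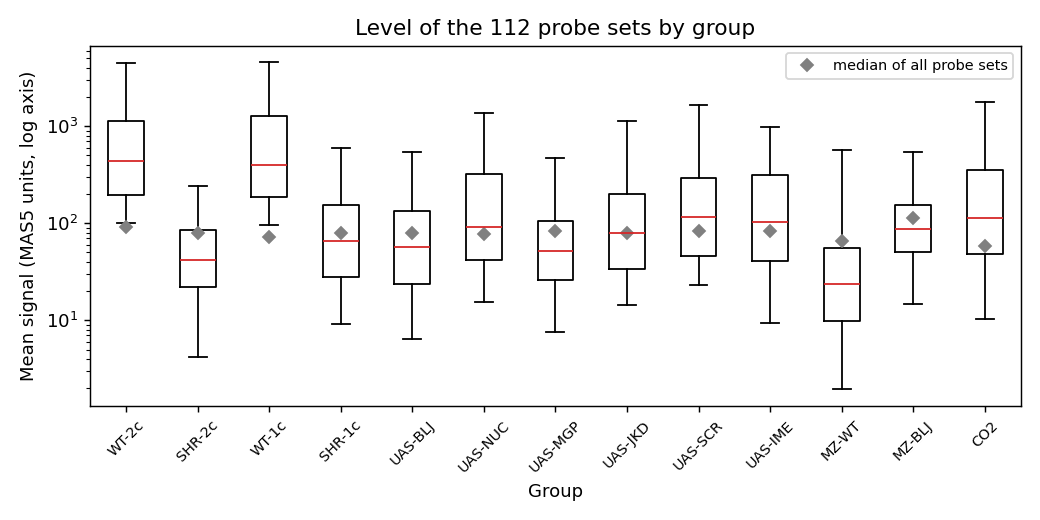
Mean signal of the 112 members in each group, on a log axis. Boxes give the quartiles and the median (red), whiskers the 5th and 95th percentiles, and diamonds the median of all probe sets. Members lie below the median of all probe sets in WT meristems and above it in CO2 cells.

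CO2 cells and WT meristems share the ecotype and neither was used by the rule, so this difference was tested, on 5 arrays. Of 112 members, 95 passed the filter on low values, as they could through the CO2 arrays or the meristem arrays alone. In CO2 cells 64 were higher (31.2% of all probe sets tested) and 15 lower (41.4%). The median log2 difference of these members was 1.81, and that of all probe sets -0.30. The count of lower members was 8 without either meristem array. Without the filter, 62 members were higher and 14 lower. CO2 cells were sorted after protoplasting and meristems were dissected, so cell type and preparation cannot be told apart. The sum of the 3 measured wound and stress genes was 3361 to 4496 in CO2 cells, 179 to 240.3 in WT meristems and 3834 to 3942 in one-cycle WT. Their part in the result was not tested. The GAPDH ratio was 2.86 ± 0.37 (n = 3) in CO2 cells and 3.51 ± 0.12 (n = 2) in WT meristems.

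AT5G04120 gave 7731, 7374 and 8566 in CO2 cells and 3.14 and 0.77 in WT meristems, and its CO2 arrays lay above those of one-cycle WT (3933, 2315 and 3741). XTH21 gave 685, 502 and 719 against 1.78 and 1.07, and was also above its WT arrays in both J0571 sets. AT1G72230 gave 573, 420.4 and 649.5 in CO2 cells against 1.22 and 0.91. All 3 were called higher in CO2 cells (adjusted p = 3.01e-07, 1.15e-06 and 1.57e-06). Their meristem signals lay below the 10th percentile of those arrays (3.30 and 2.58), so these 3 passed the filter through the CO2 arrays alone. Their p-values are therefore a description. The fitted size is set by the pseudocount and is not given. AT1G76640 gave 4128, 3525 and 4363 against 9.42 and 23.8, and was also called higher (adjusted p = 5.1e-07). With a meristem signal as low as 9.42, it too needed the CO2 arrays to pass the filter. Its p-value is likewise a description, and its fitted size is not given.

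By role, 3 of 4 peroxidase and dirigent members, 5 of 5 tested wall polysaccharide members and 4 of 4 metal, calcium or redox binding members were higher in CO2 cells than in WT meristems. So were 5 of 6 tested enzymes, 3 of 6 tested kinases, with 1 lower, and the 1 transcription factor tested, AT4G37850. Of all probe sets tested, 31.2% were higher and 41.4% lower. Members low in meristems could pass the filter only through the CO2 arrays, which favours higher calls among those tested. The counts by role are therefore a description. Among the calls by role, that of AT4G38690, an enzyme, was lost without WT meristem array 2 (0.161). Those of the kinases AT2G15300 and AT2G16750 were lost without either meristem array (0.0943 and 0.293) and without array 1 (0.0704). Likewise AT2G21100 was lost without WT meristem array 1 (0.0608), XTH16 without that array (0.296), CO2 array 1 (0.073) or CO2 array 3 (0.0974), and AT5G47530 without either meristem array (0.115 and 0.185) or without CO2 array 1 (0.0931) or 3 (0.0895). AT5G66390 gave 1066, 340.3 and 349.6 in CO2 cells and 0.56 and 1.96 in meristems. Prx37 went the other way, with 99.1, 45.3 and 57.7 in CO2 cells and 601 and 558 in meristems (-2.89 ± 0.30, adjusted p = 5.65e-05). AT5G35940, of the jacalin lectin family, was lower too, at 122, 101 and 100.5 against 1059 and 1196 (-3.21 ± 0.21, adjusted p = 5.87e-06). So was AT4G16447, at 16.7, 4.56 and 17.6 against 214 and 211 (adjusted p = 3.67e-05). With such low CO2 signals AT4G16447 passed the filter through the meristem arrays alone. Its p-value is therefore a description, and its fitted size is not given. For Prx37, AT5G35940 and AT4G16447 the meristem arrays lay above all CO2 arrays.

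In meristems labelled BLJ, 59 members were tested against WT meristems after quantile normalization, since the array medians of this comparison spanned 1.27 log2. Higher were 2 members (2.28% of all probe sets tested) and lower 2 (0.444%), and 1 of the higher members has no named gene. Prx37 gave 35.4, 84.0 and 33.2 against 601 and 558 as deposited, a fitted difference of -3.48 ± 0.48 (adjusted p = 0.0229, 0.161 without BLJ array 2). AT4G16447 gave 23.1, 8.45 and 39.6 against 214 and 211 (adjusted p = 0.0404, 0.167 without BLJ array 2). With a pseudocount of 1 or without the filter, 1 lower member was called and not 2. AT3G05920 gave 165, 259 and 500.1 against 5.90 and 10.04 (adjusted p = 0.0436). The groups did not overlap for these 3. The call of AT3G05920 was lost without WT array 1 (0.304), WT array 2 (0.201) or BLJ array 2 (0.183). It was also lost with a pseudocount of 64 (0.055) and without the filter (0.0535). Prx37, AT4G16447 and AT3G05920 could each pass the filter through the arrays of the group where they were high. Their p-values are therefore a description. No fitted size is given for AT4G16447 and AT3G05920, which were low in the other group. The counts of higher members were 0 without either WT array or BLJ array 2, 5 without BLJ array 1 and 6 without BLJ array 3, and those of lower members 0, 6 and 5. The GAPDH ratio was 7.25 ± 2.69 (n = 3) in these BLJ arrays.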

How the data were processed

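The deposited values are 1-colour intensity signals that the authors made with MAS5, per the submitters' processing notes; no version of it is stated there. All arrays were one-cycle labelled except 6 two-cycle arrays, per the labels' protocols. Of 22810 probe sets, 64 controls were left out. The annotation gives 1 gene for 13513, several for 503 and leaves 8730 unnamed; 13436 matched RefSeq's list of genes (TAIR10.1).

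Differences were fitted on log2(signal + 16) with limma 3.58.1 (lmFit, eBayes with trend), run under R 4.3.3. Tables were read by data.table (version 1.17.8). This scale understates changes of low signals. Probe sets had to exceed the 40th percentile in at least 3 arrays (2 in the meristem comparisons). Calls are Benjamini-Hochberg adjusted p-values under 0.05 over all probe sets tested. Signals were kept as deposited, except for quantile normalization where array medians spanned over 0.5 log2. The number of arrays limits the precision.

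The members and all lists were chosen with earlier results of these data known. Named are members with 1 gene: the 12 of largest smaller difference, the extremes of each line and of CO2 cells, those called in meristems, up to 5 per role, those next to the thresholds, and the 3 most and least recovered. Alternatives were another pseudocount (1 or 64), threshold (1 or 2) or filter, quantile normalization, a replicate block, smaller fits and leaving out each array.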

Additional observations from a re-analysis of the deposited data

How the results depend on the processing

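Under a pseudocount of 1 or 64 the rule gave 230 or 61 members, under a threshold of 1 or 2 it gave 244 or 57, and leaving out single WT or SHR arrays gave 91 to 126. Of 235 called comparisons of named members, 155 passed the test under each alternative in which the probe set passed the filter. The other 80 missed it under at least 1, and 0 reversed direction. Calls against SHR, whose arrays the rule used, are among the 235. The alternatives also reuse most of the same arrays, so these counts describe the settings and support nothing further. Counts of members against SHR moved past 1.5 times in these settings. Lower members in UAS-NUC were 1 with a pseudocount of 64, without the filter and with the 6 arrays of the line and SHR alone. Higher members in UAS-MGP were 2 with a pseudocount of 1, with quantile normalization and with a replicate block, and 4 with the 6 arrays. Lower members in UAS-SCR were 2 with a pseudocount of 1, quantile normalization and the 6 arrays. Lower members of UAS-IME against the other lines were 5 with quantile normalization. Under quantile normalization median recovery was -13.06% in UAS-MGP, 1.37% in the JKD-labelled line and 17.57% in UAS-IME. Higher members in BLJ meristems were 1 with a pseudocount of 64 or no filter, 8 with a replicate block, 6 in a fit of 8 arrays and 9 as deposited. Lower members there were 1 with a pseudocount of 1 or no filter, 6 with a replicate block, 8 in the fit of 8 arrays and 4 as deposited. The cause of these moves was not tested. Replicate numbers did not pair the samples. The correlation used for this check is not that of the signals themselves, which reached 0.9878 between arrays. Its median was -0.053 for same-numbered arrays and 0.041 for arrays of different number. With the block, counts against SHR and the other lines were within 1.5 times, apart from that in UAS-MGP, for example 65 higher members in UAS-SCR.

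Leaving out single arrays gave 5 to 7 higher and 8 to 16 lower members in UAS-BLJ against SHR, 27 to 56 and 1 to 2 in UAS-NUC, 9 to 23 lower in UAS-MGP, 1 to 2 lower in UAS-SCR, and 20 to 38 higher and 2 to 4 lower in UAS-IME. Against the other lines it gave 12 to 47 higher and 1 to 5 lower in UAS-NUC, 0 to 4 higher and 37 to 61 lower in UAS-MGP, 13 to 29 lower in the JKD-labelled line, 34 to 57 higher and 1 to 4 lower in UAS-SCR, and 17 to 33 higher and 2 to 6 lower in UAS-IME. It gave 8 to 15 lower members in CO2 cells, and 0 to 6 higher and 0 to 6 lower in BLJ meristems. A search of promoters for motifs was not run. Signals near the floor limit what can be said of low members.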
